A study of Mus musculus with 2 samples.

Results

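Ketone bodies and lactate are carried into heart muscle and oxidised by a short set of proteins, and the RNA levels of 7 genes that encode them were examined: the enzymes Bdh1, Oxct1 and Acat1, the transporters Slc16a1, Slc16a3 and Slc16a7, and the transporter chaperone Bsg. They were chosen by name, from 55536 annotated genes, and all 7 had a row in both libraries of the series. Total RNA-seq had been made from heart tissue of female B6CASTF1/J mice, F1 hybrids of the C57BL/6J and CAST/EiJ strains, aged 14 days, an age at which mouse pups still drink milk. The series was 1 group of 2 libraries, replicate 1 and replicate 2, each made from 300 ng of RNA to which ERCC spike-ins were added, so that levels and their spread could be described and nothing could be tested between conditions. The labels number the libraries as biological replicates 1 and 2 and give them the same donor and different animal numbers. A description that both share can be read as a pool of 3 animals. The SD (n = 2) is therefore the spread between libraries and may be partly technical.

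Ketone bodies are made in the liver from fatty acids and burned elsewhere, above all in heart, muscle and brain during fasting and suckling. In the mitochondria of the receiving tissue, 3-hydroxybutyrate dehydrogenase (Bdh1) oxidises 3-hydroxybutyrate to acetoacetate, succinyl-CoA:3-ketoacid CoA transferase (Oxct1, also called SCOT) turns acetoacetate into acetoacetyl-CoA, and the mitochondrial thiolase Acat1 splits that into acetyl-CoA for the tricarboxylic acid cycle. Ketone bodies, lactate and pyruvate cross the cell membrane together with a proton through the monocarboxylate transporters MCT1 (Slc16a1), MCT2 (Slc16a7) and MCT4 (Slc16a3). MCT1 and MCT4 reach the membrane with the help of the glycoprotein basigin (Bsg, CD147), and MCT2 with the help of the related embigin (Emb).

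The enzymes were unequal. Oxct1 and Acat1 were among the more abundant messenger RNAs of this tissue, while Bdh1, the enzyme that precedes them in the use of 3-hydroxybutyrate, was close to the detection limit. Of the transporters, MCT1 held most of the RNA, MCT2 a small part and MCT4 a trace. Basigin was the highest of the 7. By mean TPM (a level corrected for transcript length and scaled to the library) the order was Bsg, Oxct1, Acat1, Slc16a1, Slc16a7, Slc16a3 and Bdh1. The values of both libraries lay apart for every neighbouring pair in that order. The authors deposited 2 quantifications, and values are from the first unless the second is named. In the second, every neighbouring pair kept its order except Oxct1 and Acat1.

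**Figure D1:**
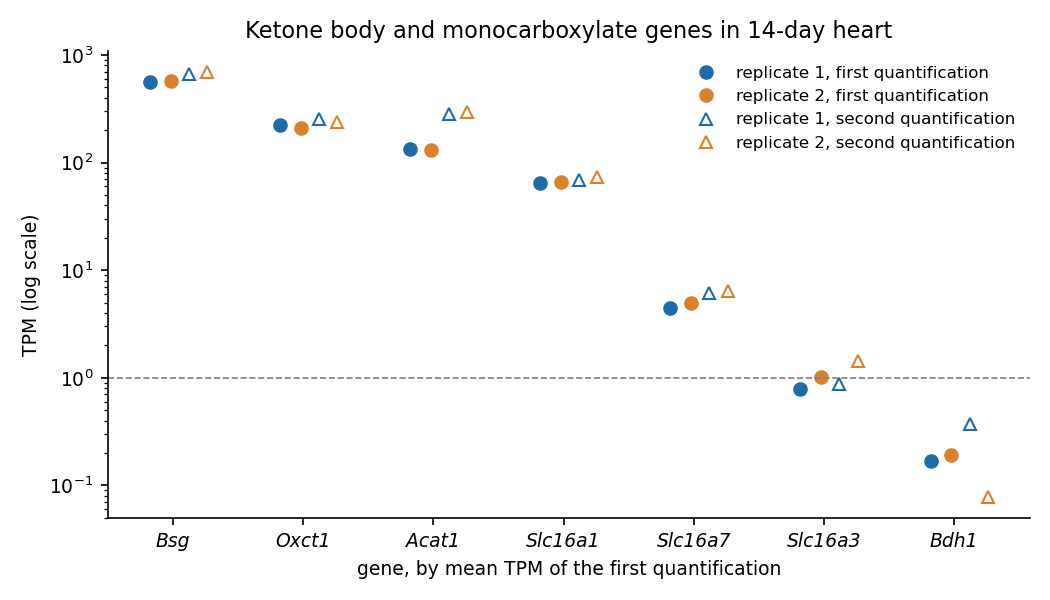
TPM of the 7 genes on a log axis, with replicate 1 and replicate 2 as points, in the first quantification (gene table) and in the second (transcripts summed per gene). Bsg, Oxct1, Acat1 and Slc16a1 sit at 64.0 TPM or more in both libraries, and Bdh1 sits at 0.369 TPM or less.

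At a threshold of 1 TPM in the mean, 5 of the 7 genes were detected, against 53.2% of 22015 nuclear protein-coding genes. The median over the 7 was 65.3 TPM, against 1.55 TPM over those protein-coding genes. The RNA of whole tissue was measured, in which fewer cells of a type and less RNA per cell cannot be told apart. The expected counts of all 7 genes were whole numbers, so no division of reads with another gene shows in them. On the strand opposite to these genes the annotation places Gm15743 (Bdh1; 2 and 1 expected counts in replicates 1 and 2), BC037032 (Oxct1; 125 and 130), Gm47862 (Slc16a7; 3 and 2) and, with 0 counts in both libraries, Gm15632 and Gm45604. Whether counting used the strand was not stated in the labels or headers.

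Promoter sequences of 4 of the 7 genes were in the RefSeq table (build GRCm38.p6, 250 bases before to 50 after the start), with 5 promoters in all; those of Acat1, Slc16a7 and Bsg were not analysed here. They were searched on both strands for ACGTG (the core bound by hypoxia-inducible factors), CACGTG (an E-box, whose palindrome holds ACGTG on each strand, so these matches overlap), AGGTCA (a nuclear receptor half-site) and GGGCGG (a GC box). Shown are an abundant and a scarce gene of each kind, Oxct1 and Bdh1 among the enzymes and Slc16a1 and Slc16a3 among the transporters, each on the plus strand, with every match of these motifs on either strand in capitals.
Oxct1, chr15:4026178-4026477: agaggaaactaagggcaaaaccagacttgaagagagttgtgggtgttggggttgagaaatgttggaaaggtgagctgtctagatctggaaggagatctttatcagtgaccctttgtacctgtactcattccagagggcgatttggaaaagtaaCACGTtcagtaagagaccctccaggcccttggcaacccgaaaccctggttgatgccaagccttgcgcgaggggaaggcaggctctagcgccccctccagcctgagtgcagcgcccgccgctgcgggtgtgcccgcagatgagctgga
Bdh1, chr16:31422047-31422346: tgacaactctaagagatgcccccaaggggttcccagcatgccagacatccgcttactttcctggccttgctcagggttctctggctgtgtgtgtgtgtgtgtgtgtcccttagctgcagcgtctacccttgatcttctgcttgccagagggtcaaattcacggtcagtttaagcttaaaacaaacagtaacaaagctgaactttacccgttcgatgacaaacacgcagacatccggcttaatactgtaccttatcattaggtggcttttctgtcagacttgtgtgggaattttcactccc
Slc16a1, chr3:104638414-104638713: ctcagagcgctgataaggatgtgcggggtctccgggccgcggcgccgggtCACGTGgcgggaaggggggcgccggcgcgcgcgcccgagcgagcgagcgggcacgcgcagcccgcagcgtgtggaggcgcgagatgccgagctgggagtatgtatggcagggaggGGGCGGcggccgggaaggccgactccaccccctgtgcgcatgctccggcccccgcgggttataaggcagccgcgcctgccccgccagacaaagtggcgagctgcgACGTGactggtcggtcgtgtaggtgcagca
Slc16a3, chr11:120948817-120949116: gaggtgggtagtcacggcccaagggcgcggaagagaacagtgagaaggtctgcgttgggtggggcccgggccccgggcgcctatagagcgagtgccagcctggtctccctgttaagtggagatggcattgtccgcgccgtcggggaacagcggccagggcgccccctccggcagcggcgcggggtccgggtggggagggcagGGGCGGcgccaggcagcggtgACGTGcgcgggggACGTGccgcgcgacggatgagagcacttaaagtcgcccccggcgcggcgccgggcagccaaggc
The transporter promoters are rich in CpG, with 42 in Slc16a1 and 36 in Slc16a3, against a median of 7 over 32851 promoters and 11 in Oxct1 and 7 in this promoter of Bdh1. Of all promoters, 97.0% hold fewer CpG than that of Slc16a1 and 93.8% fewer than that of Slc16a3. ACGTG occurs in Oxct1, Slc16a1 and Slc16a3, as in 19.6% of all promoters, CACGTG in Slc16a1, as in 7.15%, and GGGCGG in Slc16a1 and Slc16a3, as in 35.7%. The second Bdh1 promoter (chr16:31428503-31428802; 17 CpG) holds 1 GGGCGG. The half-site AGGTCA was in none of the 5 windows and in 16.3% of all promoters.

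Oxct1, which commits acetoacetate to oxidation (chr15:4026383-4155344, plus strand, mm10), had 13418 expected counts in replicate 1 and 12143 in replicate 2. Its TPM were 222.4 and 208.8, a mean of 215.6 ± 9.60 (SD, n = 2), and it ranked 275 among the protein-coding genes. The deposited interval of each library's estimate was 207.8 to 227.7 TPM in replicate 1 and 194.0 to 214.2 TPM in replicate 2. Oxct1 was higher in replicate 1 in both units, by a ratio of CPM (counts scaled to the library's depth) of 1.05 (exact Clopper-Pearson 95% interval 1.02 to 1.08, which like the other exact intervals here covers counting error only).

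Acat1, the thiolase of the last step (chr9:53580522-53610382, minus strand), had 11762 expected counts in replicate 1 and 11352 in replicate 2. Its TPM were 132.8 and 132.0, a mean of 132 ± 0.587 (SD, n = 2), at rank 439. The libraries gave almost the same level, and the ratio of CPM, replicate 1 over replicate 2, was 0.983 (0.958 to 1.01).

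Bdh1 (chr16:31422280-31458901, plus strand) had 7 expected counts in replicate 1 (exact Poisson 95% interval 2.81 to 14.4) and 5 in replicate 2 (1.62 to 11.7). Its TPM were 0.170 and 0.190, a mean of 0.180 ± 0.0141 (SD, n = 2), and 37.0% of the protein-coding genes were lower. This SD is smaller than the counting error of so few reads. The deposited posterior mean, which adds a prior to the counts, was 0.460 TPM in replicate 1 and 0.480 TPM in replicate 2. In replicate 1 the deposited interval, 0.184 to 0.785 TPM, does not include the deposited TPM itself. Low counts are not needed for this. The deposited TPM of Slc16a1 and Bsg lay above their intervals in both libraries, for Bsg 556.6 against 536.3 to 552.3 in replicate 1. Bdh1 had counts in both libraries but did not reach 1 TPM in either, and a difference between them was not resolvable at this depth: the ratio of CPM was 1.33, with an interval from 0.363 to 5.31.

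Per length, Oxct1 stood above Bdh1 by a log2 ratio of 10.23 ± 0.18 (SD, n = 2), or 1199-fold. The size of this ratio rests on the 7 and 5 counts of Bdh1. It was 10.50 in the second quantification (9.43 in replicate 1 and 11.58 in replicate 2) and 8.81 with the posterior means, and the sign was the same throughout. Bdh1 was also lower than Bdh2, its cytosolic namesake, which had 1.97 TPM in replicate 1 and 2.01 in replicate 2. The log2 ratio of Bdh1 to Bdh2 was -3.47 ± 0.09 in the first quantification, and -2.69 in replicate 1 and -5.03 in replicate 2 of the second. It was -2.16 with the posterior means and -1.34 with a pseudocount of 1, negative in each case.

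The order of Acat1 and Oxct1 changed with the quantification and with whether short noncoding transcripts were included. At the gene level Acat1 stood below Oxct1, with a log2 TPM ratio of -0.70 ± 0.06 (SD, n = 2), whereas in the second quantification it stood above it, with 283.7 and 297.1 TPM of Acat1 and 254.4 and 240.6 TPM of Oxct1 in replicates 1 and 2, a log2 ratio of 0.23. TPM divides reads by length, so a few reads on a short transcript add much to a gene's TPM. The coding transcript Oxct1-201 (3527 bases, 520 residues) held 90.1% of the gene's counts but 56.4% ± 0.113 of its TPM. The remaining TPM lay mostly in Oxct1-202 (480 bases; 23.9% ± 1.65) and Oxct1-203 (699 bases; 19.4% ± 1.94), both annotated as processed transcripts with no coding sequence. The second quantification gave Oxct1-202 no share and Oxct1-203 39.8%.

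Acat1 showed the larger discrepancy. In the first quantification its coding transcript Acat1-201 (3405 bases, 424 residues) held 95% ± 0.481 of the TPM, and the processed transcript Acat1-203 (500 bases) held 4.76% ± 0.884, with 80.6 expected counts in replicate 1 and 59.4 in replicate 2. In the second, Acat1-203 held 55.8% of the TPM with 6.70% of the counts. Only 163 of its 500 bases lie outside the exons of Acat1-201, and for Oxct1-202 and Oxct1-203 these are 44 of 480 and 54 of 699 bases, so most of their sequence cannot tell them from the coding transcripts.

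Over coding transcripts alone, a comparison added after these values had been seen, both enzymes were at nearly the same level. Acat1 was at 125.7 and 125.8 TPM and Oxct1 at 125.5 and 118.8 TPM in replicates 1 and 2 of the first quantification. In the second, Acat1 was at 127 and 129 TPM and Oxct1 at 151 and 147 TPM. The coding level of Acat1 thus differed little between the quantifications, and the log2 ratio of Acat1 to Oxct1 was 0.043 in the first and -0.22 in the second. No order of these enzymes held in every setting.

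**Figure D2:**
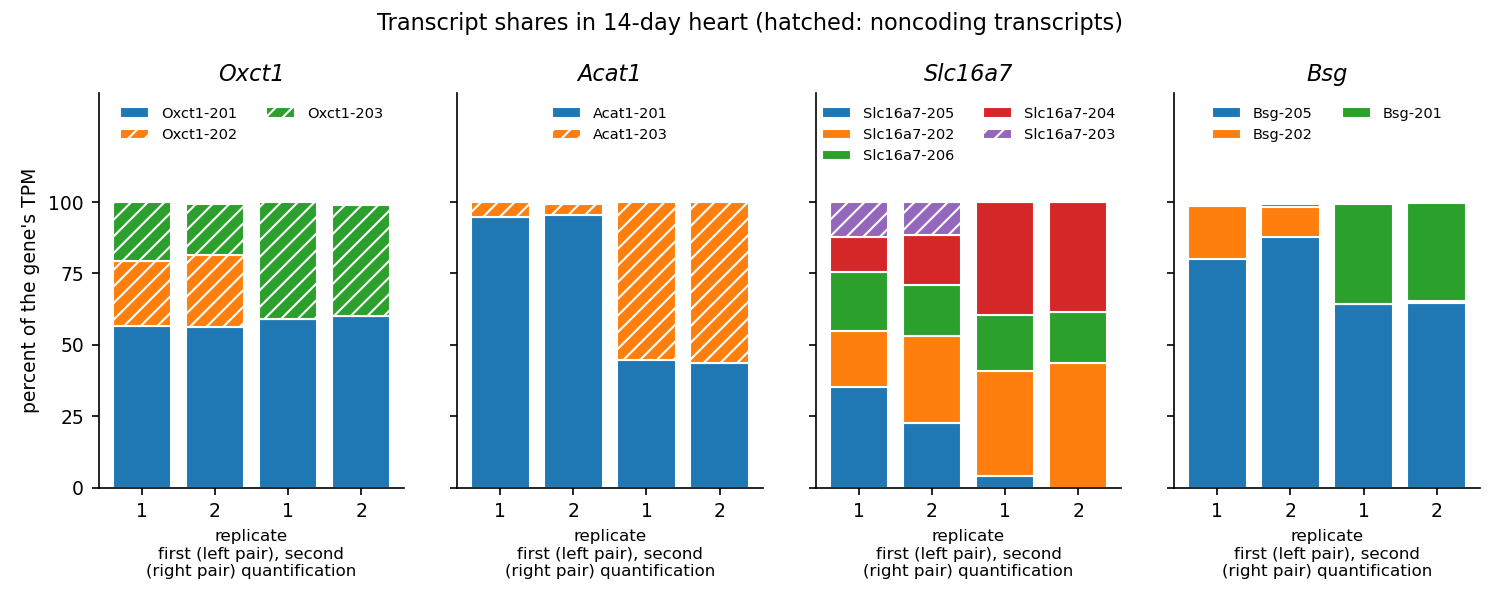
Share of the TPM of Oxct1, Acat1, Slc16a7 and Bsg held by their annotated transcripts (hatched where noncoding), in percent, as stacked bars for replicates 1 and 2 of the first and the second quantification; transcripts under 2% in every bar are not drawn, so some bars end below 100. Acat1-203 takes 4.76% in the first quantification and 55.8% in the second, and Bsg-201 takes 0.920% and 34.7%.

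The cytosolic enzymes Acat2 and Aacs were lower than Acat1 and Oxct1. Acat2, the cytosolic thiolase of sterol synthesis, had 4.02 TPM in replicate 1 and 4.18 in replicate 2, and Acat1 exceeded it by a log2 ratio of 5.01 ± 0.05, or 32.3-fold, in the first quantification and by 5.82, or 56.4-fold, in the second. Reads of Acat2 had been divided with other genes, since its expected counts were not whole numbers. Aacs, which activates acetoacetate in the cytosol for lipid synthesis, had 2.00 and 1.93 TPM, and Oxct1 exceeded it by a log2 ratio of 6.78 ± 0.03. With the deposited posterior means, 3.53 and 3.67 TPM for Aacs, this ratio was 5.87, so the SD does not cover the choice of estimate.

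MCT1 was the main transporter RNA. Slc16a1 (chr3:104638668-104658462, plus strand) had 7783 expected counts in replicate 1 and 7816 in replicate 2. Its TPM were 64.0 and 66.6, a mean of 65.3 ± 1.82 (SD, n = 2), at rank 912 of the protein-coding genes. It has 1 annotated transcript, which encodes 493 residues, so no division between transcripts enters this level. The second quantification gave 68.3 and 73.4 TPM. The small genes Gm43581 and Gm43585, annotated within its introns on the same strand, had 76 and 73 and 27 and 26 expected counts in replicates 1 and 2.

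MCT2, which has a higher affinity for its substrates than MCT1, was lower. Slc16a7 (chr10:125219270-125389465, minus strand) had 461 expected counts in replicate 1 and 441 in replicate 2. Its TPM were 4.50 and 4.95, a mean of 4.73 ± 0.318 (SD, n = 2). The deposited intervals of the libraries, 3.80 to 5.73 and 4.2 to 6.24 TPM in replicates 1 and 2, overlap. Most of its counts (60.7%) were assigned to Slc16a7-206, a transcript of 10981 bases. By TPM the transcripts Slc16a7-205 (29.0% ± 9.0), Slc16a7-202 (24.9% ± 7.79) and Slc16a7-206 (19.3% ± 2.05), which all encode a protein of 484 residues, were the highest. The second quantification gave them 2.01%, 40.2% and 18.7%. Much of the remaining TPM lay in the short Slc16a7-204 (711 bases, annotated with 55 residues), at 14.9% in the first quantification and 39.0% in the second. The noncoding Slc16a7-203 (292 bases) held 11.9% in the first and 0 in the second.

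MCT4, the transporter through which glycolytic cells release lactate, was a trace. Slc16a3 (chr11:120948480-120960868, plus strand) had 47 expected counts in replicate 1 (exact Poisson interval 34.5 to 62.5) and 52 in replicate 2 (38.8 to 68.2). Its TPM were 0.780 and 1.02, a mean of 0.900 ± 0.170 (SD, n = 2), just under the threshold of 1 TPM. In the second quantification its mean was 1.16 TPM. The deposited posterior means were 1.24 TPM in replicate 1 and 1.54 TPM in replicate 2. Rescaled over nuclear protein-coding genes alone, its mean was 2.09 TPM. Whether it passes 1 TPM thus depends on the estimate and the scaling. The counting intervals of the libraries overlap, and the share of the leading transcript Slc16a3-201 ranged from 34.3% in replicate 1 to 71.0% in replicate 2, so its transcripts were not resolved at this depth.

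Of the summed TPM of the 3 transporters, 69.3 in replicate 1 and 72.5 in replicate 2, MCT1 made up 92.1% ± 0.430, MCT2 6.66% ± 0.232 and MCT4 1.27% ± 0.198 (SD, n = 2). The log2 ratio of Slc16a1 to Slc16a3 was 6.19 ± 0.23, or 73.2-fold, that of Slc16a1 to Slc16a7 3.79 ± 0.06, or 13.8-fold, and that of Slc16a7 to Slc16a3 2.40 ± 0.18. The second quantification gave 5.98, 3.49 and 2.49 for these ratios. The order MCT1, MCT2, MCT4 was the same in both libraries and both quantifications. The proteins, translated from the annotated coding sequences, are related: MCT1 and MCT2 are identical at 58.8% of 478 aligned residues, MCT4 and MCT2 at 49.3% of 446, and MCT1 and MCT4 at 45.5% of 462.

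**Figure D3:**
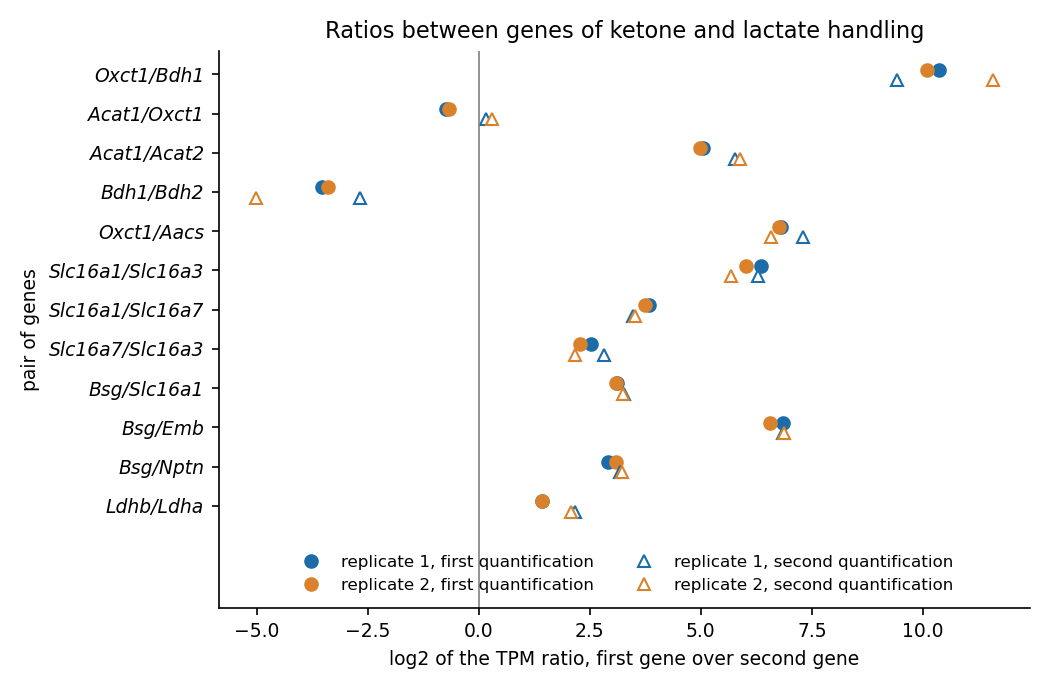
Log2 of the TPM ratio of each pair of genes, first gene over second gene, for replicates 1 and 2 of the first quantification (filled points) and the second (triangles). Acat1/Oxct1 lies on opposite sides of 0 in the quantifications (-0.70 and 0.23), and the triangles of Oxct1/Bdh1 and Bdh1/Bdh2 lie far apart, at 9 and 5 counts of Bdh1 in replicates 1 and 2 of the second quantification.

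Basigin was the highest of the 7 genes. Bsg (chr10:79704491-79711969, plus strand) had 18101 expected counts in replicate 1 and 17923 in replicate 2. Its TPM were 556.6 and 569.3, a mean of 562.9 ± 9.0 (SD, n = 2), at rank 91 of the protein-coding genes. It exceeded Slc16a1 by a log2 ratio of 3.11 ± 0.02, or 8.63-fold, and the summed TPM of the 3 transporters by 7.94 ± 0.131-fold. Basigin also has other partners and is made in many cell types, so this is a ratio of RNA in the tissue and not within a cell. Of its relatives, neuroplastin (Nptn) had 74.0 and 66.9 TPM in replicates 1 and 2, and embigin 4.81 and 6.09 TPM. Bsg exceeded Nptn by a log2 ratio of 3.00 ± 0.13 and Emb by 6.70 ± 0.22. The expected counts of Emb were not whole numbers. Emb averaged 5.45 ± 0.905 TPM beside 4.73 ± 0.318 TPM of its client MCT2, and their values overlap between the libraries.

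Basigin has 2 annotated forms that differ by 1 exon. The long form, Bsg-201, best known from the retina, carries an extra exon of 348 coding bases (chr10:79708697-79709044, mm10, plus strand) that adds 116 residues and an immunoglobulin domain. The common form, Bsg-205, skips it. The sequences that tell them apart are the extra exon itself and the junctions around it. The junctions after exon 1 are shown here from GENCODE M21 over mm10, with 60 bases on each side and the extra exon in capitals.
Bsg-201, exon 1 into the extra exon: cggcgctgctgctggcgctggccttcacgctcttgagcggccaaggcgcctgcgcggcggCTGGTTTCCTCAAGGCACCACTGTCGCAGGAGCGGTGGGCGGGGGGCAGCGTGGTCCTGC
Bsg-205, exon 1 into the next exon: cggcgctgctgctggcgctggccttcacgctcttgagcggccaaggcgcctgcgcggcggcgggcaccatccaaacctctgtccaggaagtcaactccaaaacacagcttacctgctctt
The quantifications gave these forms different shares. Bsg-205 (273 residues) held 80.1% and 87.7% of the TPM in replicates 1 and 2 of the first quantification, and 64.5% in the second. Bsg-201 (389 residues) held 0.920% ± 0.184 in the first, with 176 expected counts in replicate 1 and 231 in replicate 2, and 34.7% ± 0.525 in the second. Bsg-202 (218 residues), which starts within the gene, held 18.3% and 10.7% in replicates 1 and 2 of the first and 0.268% in the second. The libraries gave nearly the same share of Bsg-201 within each quantification, so the SD between them does not cover this disagreement. No reads over the extra exon or its junctions were examined here, and which share is right was not tested.

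The wider pathway was described by 43 further genes in 7 lists. Of these, 29 reached 1 TPM, and their median was 4.10 TPM. In the list of ketone synthesis and cytosolic use, 6 of 9 did (median 1.99 TPM). Among the other genes of the SLC16 family 6 of 11 did (median 1.41 TPM), led by Slc16a10, a carrier of aromatic amino acids, with 10.4 TPM in both libraries. Both subunits of the mitochondrial pyruvate carrier were abundant: Mpc1 had 210.5 and 206.3 TPM and Mpc2 203.0 and 209.3 TPM in replicates 1 and 2. The second quantification gave means of 328 TPM for Mpc1 and 389 TPM for Mpc2.

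The chaperones, and the acid-base partners that set up or buffer the proton that moves with each monocarboxylate, were all at 1 TPM or more (7 of 7, median 10.2 TPM). After neuroplastin, the membrane-bound carbonic anhydrase Car14 was the next highest, with 65.6 and 58.3 TPM in replicates 1 and 2. The receptors that sense these metabolites were not detected at 1 TPM (0 of 3): the lactate receptor Hcar1 had 0.330 and 0.430 TPM and the 3-hydroxybutyrate receptor Hcar2 0.0800 and 0.160 TPM. All 5 regulators were detected (median 29.1 TPM), led by the nuclear receptor Esrra, with 53.5 and 58.1 TPM, and the coactivator Ppargc1a, with 50.2 and 44.8 TPM. In the list of lactate dehydrogenases 3 of 4 were detected, and of the sodium-coupled and mitochondrial carriers 2 of 4. The 4 genes with 0 counts in both libraries, named because they were so few, were the testis forms Oxct2a and Ldhc, the sodium-coupled carrier Slc5a12 and the fatty acid receptor Ffar3.

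**Figure D4:**
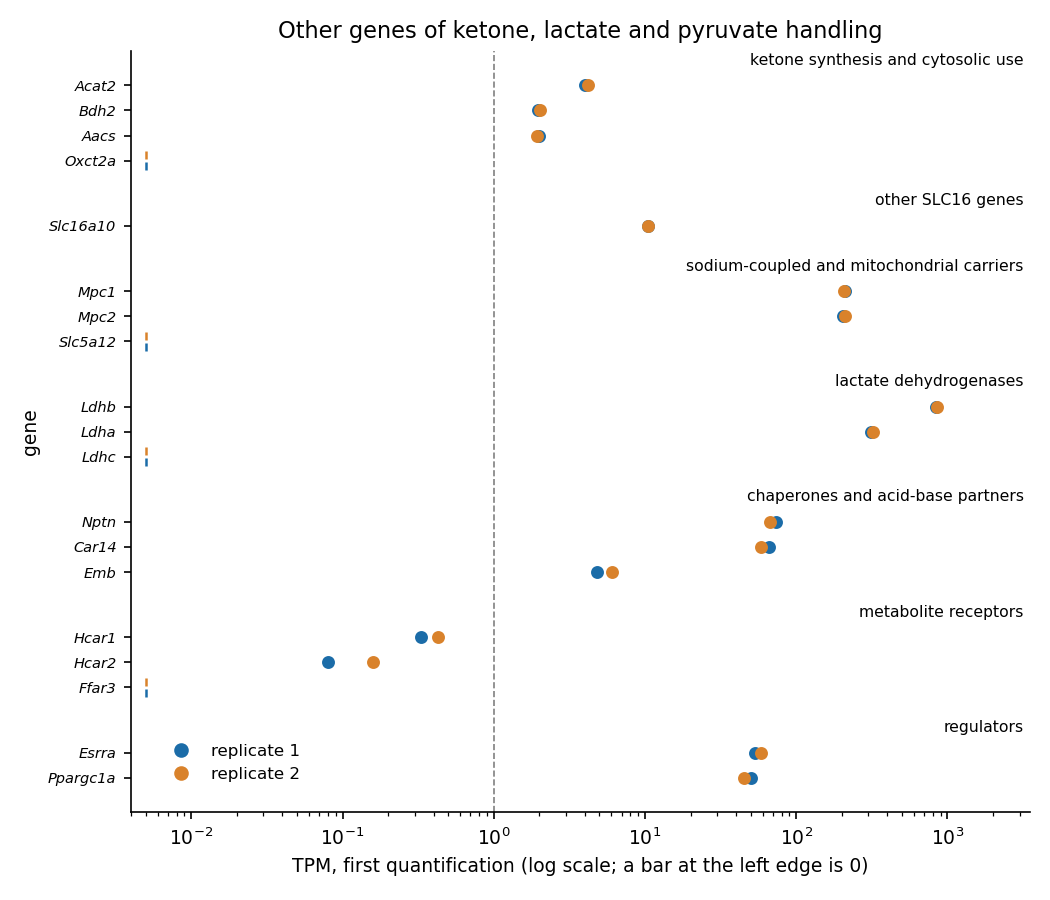
TPM of the other genes named in the text on a log axis, by list, with replicate 1 and replicate 2 as points and zeros as short bars at the left edge; the dashed line is 1 TPM. Mpc1, Mpc2, Ldhb and Ldha stand farthest right, from 203.0 TPM upward, and Hcar1, Hcar2 and Ffar3 lie left of the line in both libraries.

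The genes closest in level to each of the 7, by the distance in log2(TPM + 1) over the 2 libraries, were Ndufv3, a subunit of respiratory complex I, for Bsg (distance 0.00780), the spectrin Sptbn1 for Oxct1 (0.0207), Acot13, an acyl-CoA thioesterase, for Acat1 (0.0266), the potassium-chloride cotransporter Slc12a7 for Slc16a1 (0.0195), Rrp12 for Slc16a7 (0.00927) and Nek3 for Slc16a3 (0.0142). Fcmr, 1 of 2 genes at distance 0, had the same TPM as Bdh1. With 2 libraries of 1 group this is likeness of level only.

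The replicates were compared by a rule of size. A gene was called different when its TPM, after removal of the median shift, differed at least 1.5-fold, its mean expected count was at least 50 and the deposited intervals did not overlap. By this rule 2.55% of 12876 genes were called, 1.75% as higher in replicate 1, and 0 of the 5 genes of the set with enough counts were. The rule gives no p-value, and no unadjusted p can be had from 1 library on each side. The centred log2 ratios of replicate 1 to replicate 2 were 0.12 for Oxct1, 0.039 for Acat1, -0.027 for Slc16a1, -0.11 for Slc16a7 and -0.0025 for Bsg. Over all genes with enough counts, the median size of this ratio was 0.13 and its SD 0.32. None of the 29 genes of the wider lists with enough counts was called either. Slc16a3 and Bdh1 had too few counts for the rule. The centred ratio of Slc16a3 was -0.36 in the first quantification and -0.66 in the second, and that of Bdh1 was -0.13 in the first and 2.29 in the second.

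Replicate 1 held 36197643 expected counts in annotated genes and replicate 2 34358598, so that 3 counts, the limit that a count of 0 allows, correspond to 0.0829 and 0.0873 CPM. Cardiomyocyte markers, all 6 at 1 TPM or more, summed to 30671 TPM in replicate 1 and 32333 TPM in replicate 2, as the label of heart would have it. Markers of endothelium (6 of 6; 307 and 299 TPM), fibroblasts (6 of 6; 548 and 536 TPM) and smooth muscle and pericytes (5 of 5; 381 and 376 TPM) were nearly level between replicates 1 and 2. Red cell markers (5 of 5) summed to 24092 and 18484 TPM, airway and lung markers (4 of 6) to 175 and 10.9 TPM, and fat markers (4 of 4) to 83.3 and 109 TPM. All airway and lung markers were higher in replicate 1 except Sftpc, with 0 counts in replicate 1 and 16 in replicate 2. Macrophage markers (5 of 6) summed to 45.6 and 40.2 TPM, neutrophil markers (2 of 5, Ly6g at 0) to 3.06 and 3.55 TPM, fast skeletal muscle markers (0 of 5) to 1.17 and 3.71 TPM, and liver markers (0 of 4) to 0.650 and 1.28 TPM. Their part in the levels of the 7 genes was not tested.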

How the data were processed

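Levels came from 2 total RNA-seq libraries of heart, both in 1 group. The deposited readme files give mm10 and GENCODE M21. Programs, versions and the treatment of reads carrying CAST/EiJ alleles were not given in the sources used here. In the first quantification (RSEM column names) each gene and transcript has, per the file headers, an expected count and a TPM, and the authors scaled TPM over all rows, with spike-ins. The deposited bounds of the interval around its posterior mean are a score of precision within 1 library, and the deposited IsoPct is each transcript's percent of its gene's TPM. The second (kallisto column names) holds estimated counts and TPM per transcript, which were summed per gene here.

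The 7 genes, the pairs and the lists were chosen with earlier results of these data known. Values are mean ± SD over both libraries. Exact Clopper-Pearson and Poisson intervals (95%) cover counting error only. The named genes are the 7, the genes of the pairs, the 2 highest of each list and the protein-coding gene nearest in level to each of the 7. Some genes that this rule names are not reported here. The size rule (1.5-fold, mean expected count of at least 50, deposited intervals apart) was tested on simulated data. Alternatives used the second quantification, posterior means, a pseudocount of 1, TPM rescaled over nuclear protein-coding genes, other filters and single libraries. They also used TMM (edgeR 4.0.16) and DESeq2 1.42.0 size factors under R 4.3.3. Python 3.11.15, numpy 2.4.6, pandas 2.3.3, scipy 1.17.1, matplotlib 3.10.9 and Biopython 1.88 were used. Proteins were translated from GENCODE M21 coding sequences and aligned globally with BLOSUM62, since a RefSeq protein table was not used here.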

Additional observations from a re-analysis of the deposited data

How the results depend on the processing

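The log2 ratio of Acat1 to Oxct1 (-0.70) changed sign to 0.23 in the second quantification and to 0.043 over coding transcripts. It was -0.14 with expected counts and -0.22 over coding transcripts of the second quantification. The settings restricted to coding transcripts were chosen after seeing the data. Oxct1/Bdh1 (10.23) was 10.50 in the second quantification, 8.81 with posterior means, 7.52 with a pseudocount of 1, 11.08 with expected counts, and 9.87 and 9.77 over coding transcripts of the first and second quantification. Slc16a1/Slc16a3 (6.19) was 5.53 with posterior means, 5.13 with a pseudocount and 7.30 with expected counts. Slc16a1/Slc16a7 (3.79) was 3.49 in the second quantification, 3.69 with posterior means, 3.53 with a pseudocount, 4.11 with expected counts, and 3.97 and 3.49 over coding transcripts of both. Bsg/Slc16a1 (3.11) was 3.26 in the second quantification, 3.09 with a pseudocount, 1.21 with expected counts and 3.25 over coding transcripts of the second. All ratios but Acat1/Oxct1 kept their sign in every setting run. Between the libraries 328 of 12876 genes were called (2.55%). Of the same 12876, 105 were called at 2-fold, 292 with TMM and 296 with DESeq2 size factors. With no count filter 415 of 55536 genes were called, and at a minimum of 10 counts 401 of 16384. In the second quantification, where no interval applies, 859 of 13148 were called. In every setting 0 of the 7 genes were called among those tested. These were all 7 with no count filter, 6 at a minimum of 10 counts and 5 in the other settings. In the second quantification Slc16a3 and Bdh1 had centred log2 ratios of -0.66 and 2.29, beyond 1.5-fold. Both fell short of the minimum mean count of 50, Slc16a3 narrowly, with 47.9999 and 52 counts in replicates 1 and 2. No lower minimum was run there, so the 0 of that setting does not cover them. With so small a share called over all genes, so few genes cannot show that the set is steadier than others. At 10 TPM 4 of the 7 genes were detected, and by the second quantification or replicate 2 alone 6. Rescaling TPM over nuclear protein-coding genes alone raised the means of all 7 genes. Oxct1 went from 215.6 to 501 TPM and Slc16a3 from 0.900 to 2.09 TPM, above the threshold of 1 TPM. Depth limits Bdh1 (7 and 5 expected counts) and Slc16a3 (47 and 52), whose ratios carry counting error beyond the SD. No paired analysis was possible because the series has 1 group.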
